A study of Mus musculus with 9 samples.

Results

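The transcripts described here belong to 9 mouse genes of vitamin A (retinoid) handling: Lrat, Rbp4, Aldh1a1, Aldh1a2, Crabp1, Crabp2, Rarb, Rarres1 and Rarres2. They were picked by name from the 30869 gene symbols on an Illumina MouseWG-6 bead array and were represented by 15 of its 45281 gene probes. The choice was made with earlier results of the same arrays known, so the levels of these genes and their differences between groups are given as a description, without a test. Every value is a background-corrected, quantile-normalized intensity on the log2 scale (a level) or a difference between such levels. A probe counted as detected on an array where its detection p-value was under 0.05.

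The cells were labelled as activated hepatic stellate cells (aHSCs) from C57/Bl6 WT1GFP/+ mice labelled as male (the study's methods also allow female mice for culture), in which a green fluorescent protein (GFP) reporter marks the WT1 locus. WT1-high (GFP high; arrays 1, 8 and 29) and WT1-intermediate (GFP low; arrays 1, 8 and 30) cells were sorted from livers injured repeatedly with intraperitoneal carbon tetrachloride. WT1-negative (GFP negative; arrays 3, 11 and 14) cells came from quiescent stellate cells of the same genotype after 7 days on plastic. Per the study, fewer animals than arrays supplied the WT1-positive groups, so some of these arrays share an animal. No injured animal supplied WT1-negative cells and no culture supplied WT1-positive cells. WT1 status and source therefore cannot be told apart in any comparison with the WT1-negative group.

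Mean signal per array lay between 147 and 289, and 38.1% to 43.7% of probes were detected. The dimmest detected probe of an array stood at a level of 4.48 to 4.65, so a level near or below this is at background. Of the stellate cell markers examined, Gfap, Rgs5 and Lhx2 were not detected on any array, whereas the summed linear intensity of all 12 was 5245 to 6677 in WT1-high, 3936 to 4954 in WT1-intermediate and 9420 to 10879 in WT1-negative samples. Members of the list went both ways: mean Acta2 was 11.23, 10.47 and 13.01 in that order of groups, and mean Col3a1 was 11.29, 11.11 and 6.75. Acta2 was the brightest of the 12 in WT1-negative samples and made up most of their sum.

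Quiescent stellate cells are the main vitamin A store of the liver. Retinol reaches tissues bound to the carrier RBP4, is esterified for storage by lecithin retinol acyltransferase (LRAT), and is otherwise oxidized to retinal and then to retinoic acid by the retinal dehydrogenases ALDH1A1 and ALDH1A2. Retinoic acid is held in the cytoplasm by CRABP1 and CRABP2 and acts through nuclear receptors such as RARB, whose gene is itself induced by it. Rarres1 (retinoic acid receptor responder 1) and Rarres2, which encodes the secreted adipokine chemerin, are named for their response to retinoids. Loss of the retinoid store accompanies stellate cell activation.

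The 9 genes did not move as a block. Aldh1a1, Aldh1a2, Rbp4 and Rarres2 were higher in both WT1-positive groups than in WT1-negative samples. Rarres1 was high in WT1-high and WT1-negative samples and low in WT1-intermediate samples. Rarb had similar group means with overlapping arrays, Lrat and Crabp1 stayed at background, and Crabp2 rose above it clearly on a single array.

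**Figure D1:**
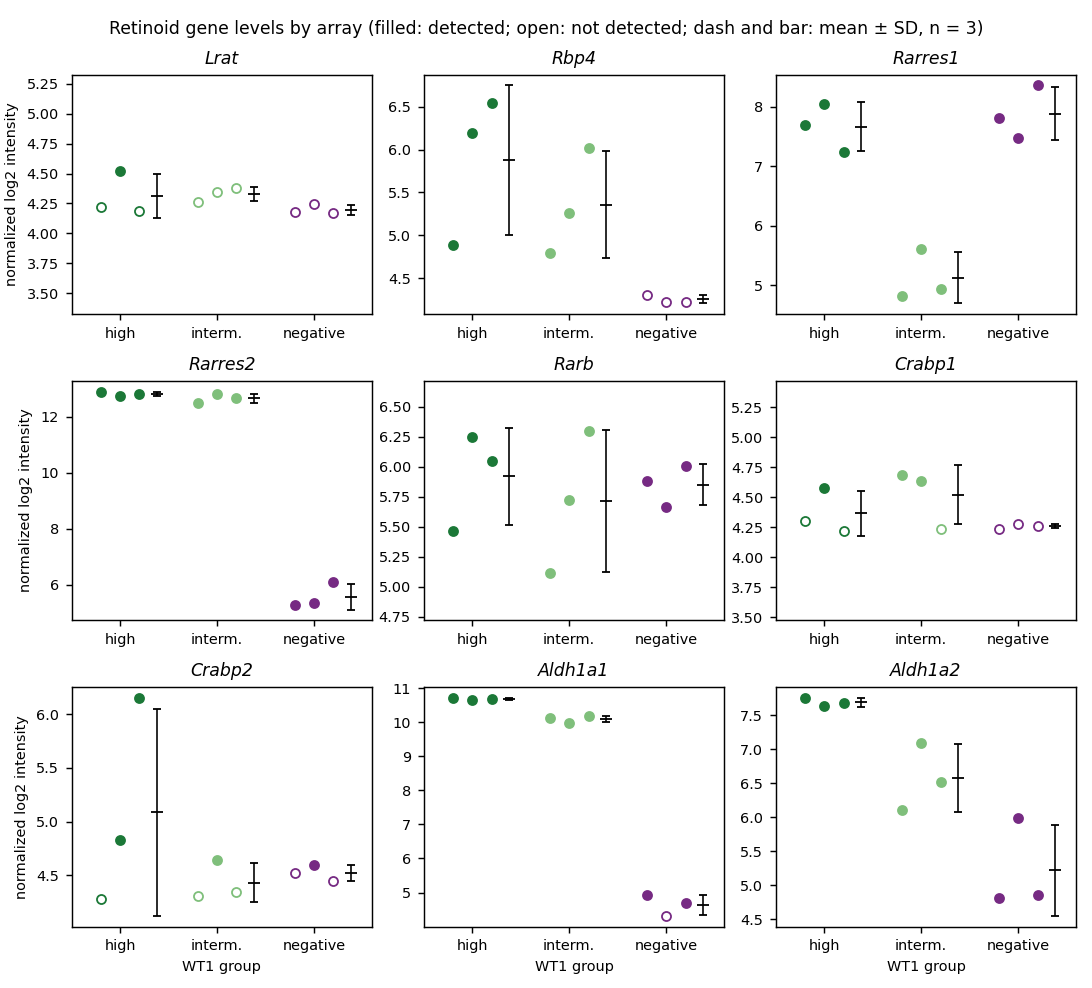
Normalized log2 intensity (y axis, a different range in each panel) of the 9 retinoid genes on each of the 9 arrays, by the brightest probe of each gene. Within each WT1 group (x axis) points run in order of array number, filled where detected and open where not, and the dash with its bar is the mean ± SD (n = 3). Rarres1 dips in the WT1-intermediate group, and Rarres2 and Aldh1a1 fall by 5.45 to 7.23 log2 units in the WT1-negative group.

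Storage came first. Lrat, the enzyme that makes retinyl esters and a usual marker of stellate cells, was at background in all groups. Its level was 4.22, 4.52 and 4.19 on WT1-high arrays 1, 8 and 29, then 4.27, 4.35 and 4.38 on WT1-intermediate arrays 1, 8 and 30. On WT1-negative arrays 3, 11 and 14 it was 4.17, 4.24 and 4.17. It was detected on WT1-high array 8 alone, and the 1 probe did not enter the fit. No fold is given, since no pair of groups had a level above the detection limit.

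Rbp4, the plasma carrier of retinol that is made chiefly by hepatocytes, was detected on all 6 arrays from injured liver and on none from culture. Levels were 4.88, 6.19 and 6.54 in WT1-high, 4.79, 5.26 and 6.02 in WT1-intermediate, and 4.30, 4.22 and 4.22 in WT1-negative samples. The liver groups overlapped one another, while all of their arrays were above the cultured ones. The mean was at least 2.41-fold above the background limit of the WT1-negative arrays in WT1-high samples and at least 1.69-fold above it in WT1-intermediate samples. Between the liver groups, Rbp4 differed by 0.52 ± 0.39 (SE of the fit to all groups, n = 3 per group), within the spread of either group (SD 0.88 and 0.62).

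A list of 10 hepatocyte genes moved with Rbp4 from array to array. Their summed linear intensity was 515, 2443 and 2172 on WT1-high arrays 1, 8 and 29, and 614, 894 and 1763 on WT1-intermediate arrays 1, 8 and 30. It was 340, 201 and 305 in WT1-negative samples. The 3 liver arrays with the highest Rbp4 (WT1-high 29, WT1-high 8 and WT1-intermediate 30) were also those with the highest hepatocyte sum. Alb, Fgb and Tat, which hepatocytes express at high level, were not detected in any group, and Apoa1, Serpina1a, Apoc3 and Cyp2e1 were detected in the liver groups only. Ttr, Fga and Ahsg were detected in culture too. On WT1-negative arrays 3, 11 and 14, Fga read 5.95, 4.74 and 5.86 and Ahsg 6.61, 4.58 and 6.32. The part of hepatocyte RNA in the Rbp4 values was not tested. In RNA from bulk sorted cells, fewer cells of a type and less RNA per cell cannot be told apart.

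**Figure D2:**
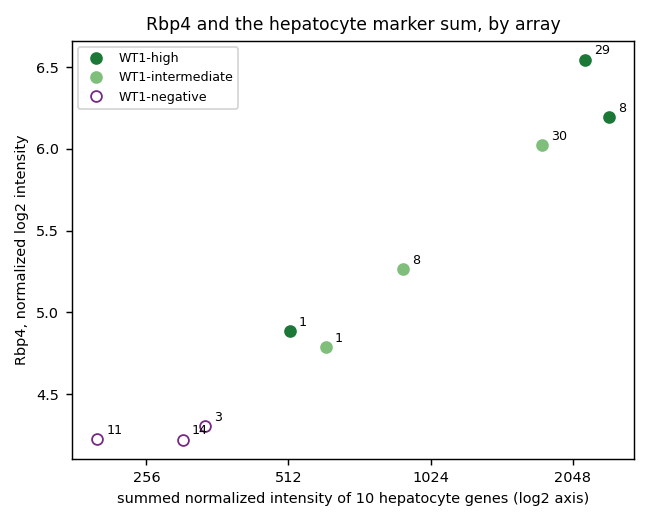
Rbp4 level (y axis, normalized log2 intensity) against the summed normalized intensity of 10 hepatocyte genes (x axis, log2 scale) on the 9 arrays, numbered as in the labels; open points are arrays where Rbp4 was not detected. The WT1-negative arrays sit at 201 to 340 on the x axis and the WT1-high arrays 8 and 29 at 2443 and 2172.

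Among the enzymes of retinoic acid synthesis, Aldh1a1 had one of the widest separations between liver and culture. Its level was 10.72, 10.64 and 10.67 in WT1-high samples and 10.12, 9.98 and 10.18 in WT1-intermediate samples, against 4.92, 4.32 and 4.68 in WT1-negative samples. The cultured samples sat at the detection limit, and on WT1-negative array 11 the probe was not detected. The difference was 6.04 ± 0.17 (SE) for WT1-high and 5.45 ± 0.17 for WT1-intermediate samples. These values depend on how the background of the cultured arrays is treated, and were 3.95 and 3.40 without background correction, so no fold is given. Between the liver groups the ranges did not overlap, with WT1-high 0.59 ± 0.17 above WT1-intermediate. Within arrays of the same number this difference was 0.60 (array 1), 0.66 (array 8) and 0.50 (WT1-high 29 against WT1-intermediate 30).

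Aldh1a2, the dehydrogenase that makes most retinoic acid in the embryo, followed the same order of groups over a smaller range. Its level was 7.76, 7.63 and 7.68 in WT1-high, 6.11, 7.10 and 6.52 in WT1-intermediate, and 4.81, 5.99 and 4.86 in WT1-negative samples. No groups overlapped, although WT1-negative array 11 at 5.99 came close to WT1-intermediate array 1 at 6.11. WT1-high samples were 2.47 ± 0.31 (SE) above WT1-negative samples, which is 5.54-fold, and WT1-intermediate samples were 1.36 ± 0.31 above them, or 2.56-fold. Without background correction these differences were 1.22 and 0.54. The step from WT1-intermediate to WT1-high was 1.11 ± 0.31, or 2.16-fold, and was 1.65, 0.53 and 1.16 within the 3 pairs of arrays. A second Aldh1a2 probe shared 46 of its 50 bases with this one and gave differences of 1.11, 2.24 and 1.13 for the same comparisons (high minus intermediate, high minus negative and intermediate minus negative), so it is hardly a separate measurement.

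The 9 mesothelial markers examined had the same order of groups as Aldh1a1 and Aldh1a2. Their summed linear intensity was 33275 to 37873 in WT1-high, 19223 to 26587 in WT1-intermediate and 336 to 430 in WT1-negative samples. All 9 were detected in the liver groups, and Dmkn, Gpm6a, Lrrn4 and Krt19 were undetected in culture. The part of mesothelial RNA in the values of the dehydrogenases and of Rarres2 was not tested.

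The cytoplasmic binding proteins were near background. Crabp1 lay at 4.30, 4.58 and 4.22 in WT1-high, 4.68, 4.64 and 4.24 in WT1-intermediate, and 4.24, 4.28 and 4.26 in WT1-negative samples. It was detected on 3 arrays, 2 of them WT1-intermediate, and the groups overlapped. Crabp2, which delivers retinoic acid to its receptors in the nucleus, lay at 4.28, 4.83 and 6.15 in WT1-high samples. The other 6 arrays gave 4.31, 4.64 and 4.34 in WT1-intermediate and 4.52, 4.60 and 4.44 in WT1-negative samples. WT1-high array 29 thus stood apart, and its SD of 0.96 made the WT1-high group the most variable of any group for any of these probes. The WT1-high minus WT1-intermediate difference of 0.65 ± 0.36 (SE) came down to 0.12 without that array.

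Rarb, the receptor gene that responds to its own ligand, did not separate the groups. Its brightest probe read 5.47, 6.25 and 6.05 in WT1-high, 5.11, 5.73 and 6.30 in WT1-intermediate, and 5.88, 5.67 and 6.00 in WT1-negative samples, detected on every array. The group means of 5.92 ± 0.40, 5.71 ± 0.59 and 5.85 ± 0.17 (SD) lay within 0.21 of each other. A second probe gave means of 5.72, 5.65 and 5.60 in the same order of groups, and the remaining Rarb probe was not detected on any array.

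The Rarb promoter holds a textbook retinoic acid response element, and it is printed with that of Cyp26a1, the other gene of the retinoid set with such an element, because both genes serve as readouts of retinoic acid signalling. The element searched was a direct repeat of the hexamers AGGTCA or AGTTCA or GGGTCA or GGTTCA in any pairing, with 5 bases between them, on both strands. It was found in 32 of 32851 promoter entries of RefSeq (GRCm38.p6, 250 bases before to 50 after a gene start), which is 0.0974%. Of the 9 genes, 7 had an entry (Rarres2 and Crabp2 had none) and only Rarb held the repeat. Of the 35 other retinoid genes with an entry, only Cyp26a1 held it. With a spacer of 2 bases, the repeat was in 0.268% of entries and in none of these genes, and with a spacer of 1 base in 0.222% and only in Bco1. Each sequence gives the 250 bases before the gene start, 5′ to 3′ on the gene's strand, with the repeat in capitals.
Rarb, chr14:16575477-16575726, minus strand: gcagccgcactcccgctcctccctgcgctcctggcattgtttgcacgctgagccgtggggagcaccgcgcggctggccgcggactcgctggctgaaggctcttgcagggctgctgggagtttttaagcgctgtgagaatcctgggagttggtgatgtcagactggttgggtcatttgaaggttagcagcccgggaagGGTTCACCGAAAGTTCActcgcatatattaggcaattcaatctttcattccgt
Cyp26a1, chr19:37697558-37697807, plus strand: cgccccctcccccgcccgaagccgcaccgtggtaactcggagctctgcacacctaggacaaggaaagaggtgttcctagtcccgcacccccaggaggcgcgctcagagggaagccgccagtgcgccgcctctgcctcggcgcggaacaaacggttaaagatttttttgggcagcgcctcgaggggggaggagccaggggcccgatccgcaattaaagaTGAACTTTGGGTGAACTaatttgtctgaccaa
The Rarb repeat begins 53 bases before the gene start and reads along the gene. The Cyp26a1 repeat begins 32 bases before it and lies on the opposite strand, where it reads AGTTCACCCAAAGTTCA. A match of letters is a description and shows no binding.

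Cyp26a1, whose product degrades retinoic acid, was at background like its relative Cyp26b1. Cyp26a1 read 4.25, 4.59 and 4.68 in WT1-high, 4.27, 4.55 and 4.62 in WT1-intermediate, and 4.44, 4.32 and 4.23 in WT1-negative samples, and was detected on 3 of 9 arrays. Neither of the genes with the 5-base-spaced repeat was called in any comparison.

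Rarres1 set the WT1-positive groups apart from each other. Its level was 7.70, 8.05 and 7.24 in WT1-high samples and 4.82, 5.62 and 4.93 in WT1-intermediate samples, with 7.81, 7.47 and 8.36 in WT1-negative samples. All WT1-intermediate arrays were below all others, whereas WT1-high and WT1-negative ranges overlapped. WT1-high exceeded WT1-intermediate by 2.54 ± 0.28 (SE), or 5.82-fold, and by 2.88, 2.44 and 2.31 within the 3 pairs of arrays. The WT1-intermediate minus WT1-negative difference was -2.76 ± 0.28, or 6.76-fold lower, and WT1-high differed from WT1-negative by -0.22 ± 0.28. Without background correction the Rarres1 differences from WT1-intermediate shrank, to 1.25 for WT1-high minus WT1-intermediate and -1.40 for WT1-intermediate minus WT1-negative. A second Rarres1 probe was not detected on any array, so the pattern rests on 1 probe.

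Rarres2 had the largest difference of the 9 genes. Its brightest probe read 12.89, 12.75 and 12.80 in WT1-high, 12.49, 12.81 and 12.65 in WT1-intermediate, and 5.29, 5.34 and 6.12 in WT1-negative samples. The liver groups overlapped at close to 13 on the log2 scale, and all cultured samples lay more than 6 units below. The differences from WT1-negative were 7.23 ± 0.21 (SE) and 7.06 ± 0.21, or 150- and 134-fold, and WT1-high differed from WT1-intermediate by 0.17 ± 0.21. Without background correction the differences from WT1-negative were 5.74 and 5.58, and averaged over all 3 Rarres2 probes they were both 4.73.

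The 3 Rarres2 probes did not tell the same story, so the first 30 of the 50 bases of each are given as the array's annotation lists them.
ILMN_3003130: gctccagcagaccaactgccccaagaagga
ILMN_2596655: tcgtctcccagagactttcaactccaggct
ILMN_2588295: cagaattgggcagtggactatccggcctag
The first is the probe described above. ILMN_2596655 was undetected on all WT1-negative arrays, and its mean was at least 219-fold above their background limit in WT1-high and at least 228-fold above it in WT1-intermediate samples. ILMN_2588295 went the other way at low level, reading 4.32, 4.44 and 5.56 in WT1-high, 5.19, 4.65 and 4.82 in WT1-intermediate, and 5.47, 5.95 and 5.57 in WT1-negative samples, with differences from WT1-negative of -0.89 ± 0.30 and -0.78 ± 0.30 (SE). What ILMN_2588295 hybridizes to was not tested.

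**Figure D3:**
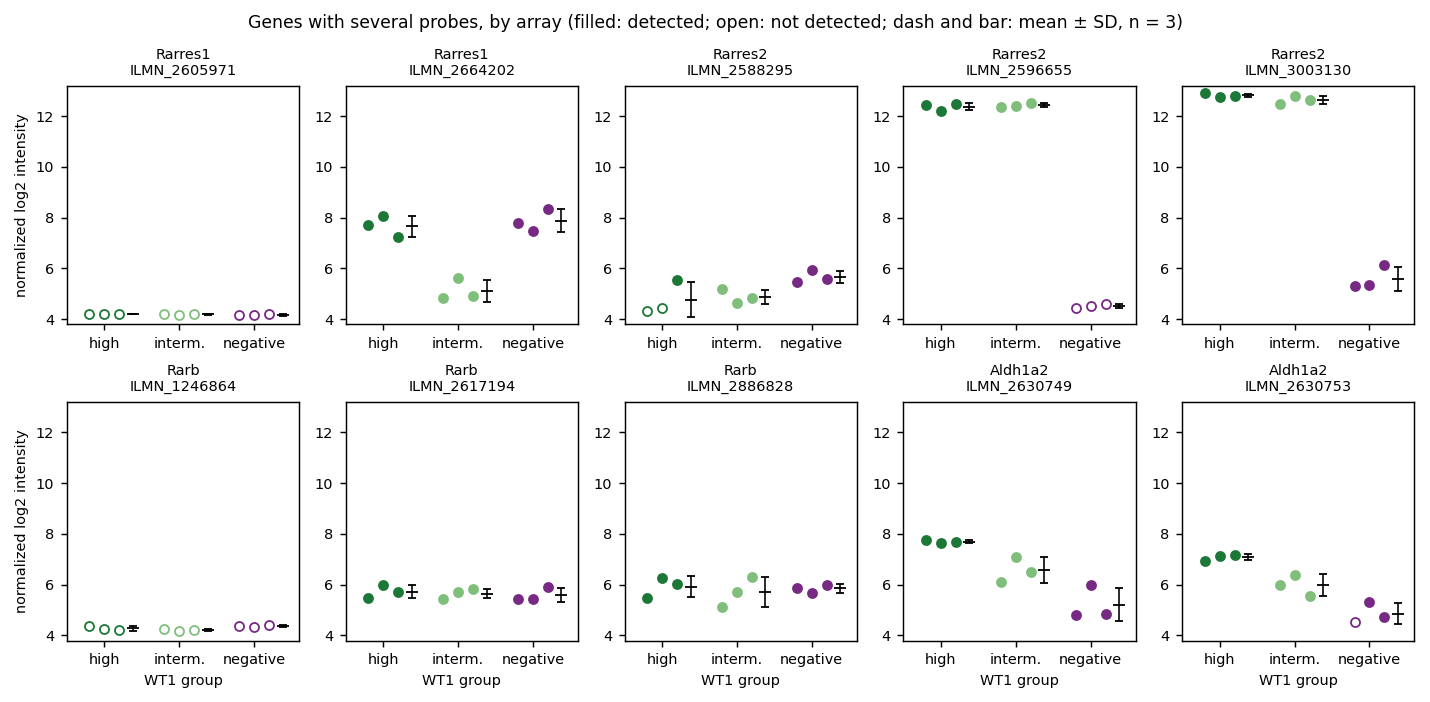
All 10 probes of the 4 genes with several probes (Rarres1, Rarres2, Rarb and Aldh1a2), as normalized log2 intensity (y axis, the same range in every panel) by WT1 group (x axis); filled points are detected, open points are not, and the dash with its bar is the mean ± SD (n = 3). ILMN_2596655 and ILMN_3003130 of Rarres2 fall together in the WT1-negative group, while ILMN_2588295 lies between 4.32 and 5.95 throughout.

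Counted with limma at a Benjamini-Hochberg adjusted p under 0.05 (a call), 8 of the 9 genes entered the fit. WT1-high against WT1-intermediate gave 1 call among the 8 (Rarres1, higher), beside 3.84% of all 14649 genes tested in either direction, 0.963% higher and 2.87% lower. Against WT1-negative, 4 were called higher in WT1-high samples (Rbp4, Rarres2, Aldh1a1 and Aldh1a2), beside 59.8% of all genes called in either direction, 27.7% called higher and 32.2% lower. In WT1-intermediate samples the same 4 were called higher and Rarres1 lower, beside 57.9% of all genes in either direction, 25.9% higher and 32% lower. These contrasts informed the choice of genes, and some genes passed the filter on dim probes only through the group where they were bright, so nothing is read from the counts. The groups did not overlap for 3 genes between WT1-high and WT1-intermediate (Rarres1, Aldh1a1 and Aldh1a2, all higher), where 20.5% of all genes showed no overlap in either direction and 11.4% none with WT1-high above. With the animal as a random block (arrays 29 and 30 as 1 animal), limma called 3 of the 8 genes between the liver groups in place of 1, and 1796 of 20573 probes in place of 730.

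**Figure D4:**
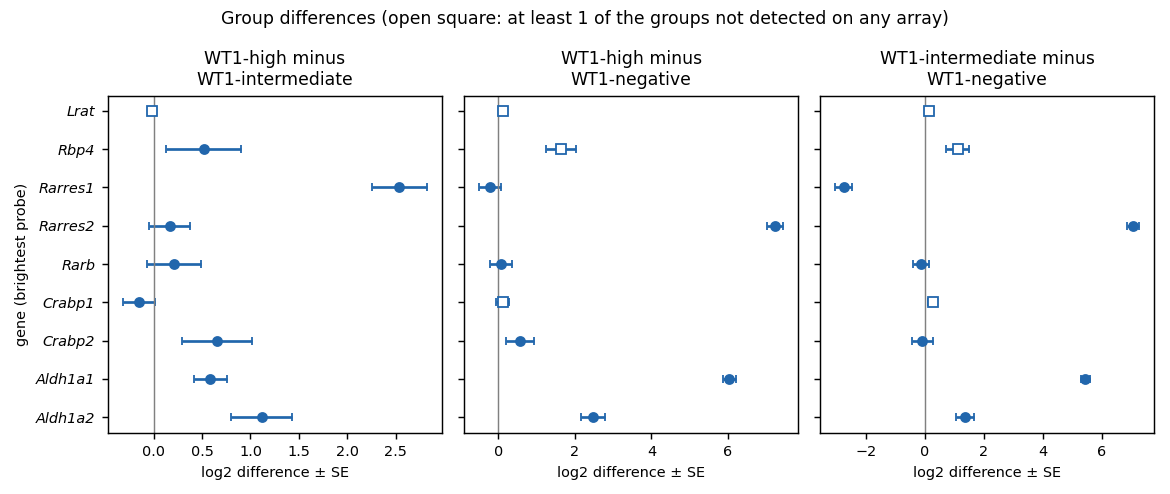
Log2 difference ± SE (x axis) of each of the 9 retinoid genes (y axis, brightest probe) for the 3 pairs of groups, each on its own x range. Open squares mark differences in which at least 1 of the groups was not detected on any array, so that the value is no measure of fold, and Lrat has no SE because it was not fitted.

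Other genes shared these patterns to differing degrees. Over the 9 arrays and the 14649 genes tested, the closest to Rarres1 were Dtna (Pearson r = 0.973) and Slc13a3 (0.963), and 6 genes in all exceeded 0.95. For Rbp4 they were the liver secretory genes Apoc3 (0.991) and Orm1 (0.991), with 38 above 0.95. For Aldh1a2 they were LOC100048083 (0.992) and Isyna1 (0.985), with 84 above 0.95. Aldh1a1 and Rarres2 were followed by 1196 and 1107 genes above 0.95, with Tnfaip3 (0.999) among the closest to Aldh1a1 and Igfbp5 (1) and Nbl1 (0.999) the closest to Rarres2, since any gene with a wide gap between liver and culture correlates with them. Rarb was closest to Tram1 (0.973) and Rapgef2 (0.893), and Crabp2 to Prl2c4 (0.928) and Gata4 (0.91). For Crabp1 these were 9030614H07Rik (0.961) and LOC100039755 (0.935), and for Lrat Nov (0.951) and Slc6a13 (0.92), correlations of values that were mostly at background. The arrays share their group structure, so these coefficients are descriptive.

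The other genes of the retinoid pathway give the setting. This list too was chosen with earlier results of the same arrays known, so its calls and adjusted p-values are given as a description. Of 44 listed, 43 were on the array and 33 were bright enough to be tested. Between WT1-high and WT1-intermediate samples, 2 of 33 were called (6.06%, beside 3.84% of all genes). Against WT1-negative, 19 of 33 were called for WT1-high (11 higher and 8 lower; 57.6%, beside 59.8% of all genes) and 15 for WT1-intermediate (10 higher and 5 lower; 45.5%, beside 57.9%). Median differences of the 33 genes were 0.05, 0.13 and 0.08 in the order of these comparisons. Both comparisons with culture share the WT1-negative arrays.

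Of 5 ester and lipid droplet genes tested, Lpl, Plin2 and Pnpla2 were called lower and Dgat1 higher in WT1-high than in WT1-negative samples. Over all genes, 59.8% were called in that comparison. Between the liver groups Lpl was called, while Dgat1 (-0.56, limma adjusted p = 0.135) and Plin2 (-1.05, adjusted p = 0.1) were not, but were with the animal as a block (adjusted p = 0.037 for each). Lpl, a triglyceride lipase that can also release retinol from esters, read 9.97, 10.45 and 9.84 in WT1-high, 12.08, 11.88 and 11.69 in WT1-intermediate, and 12.09, 10.39 and 12.08 in WT1-negative samples. WT1-high arrays were all below WT1-intermediate arrays, with a difference of -1.80 ± 0.38 (SE; limma adjusted p = 0.028). The difference from WT1-negative samples was -1.43 ± 0.38 (adjusted p = 0.00727), with overlap. The call between liver groups was lost without WT1-intermediate array 1 (adjusted p = 0.105), WT1-intermediate array 8 (0.0593), or WT1-high array 1 (0.0684), 8 (0.0579) or 29 (0.0878). Plin2, which coats lipid droplets, was lower in WT1-high than in WT1-negative samples (-1.13 ± 0.31, adjusted p = 0.00895). Pnpla2, a triglyceride lipase, was lower in both WT1-positive groups, with differences of -0.57 ± 0.17 in WT1-high samples (adjusted p = 0.0145) and -0.82 ± 0.17 in WT1-intermediate samples (adjusted p = 0.00189). Dgat1, an acyltransferase that can also esterify retinol, was higher in both, by 0.54 ± 0.18 (adjusted p = 0.0258) and 1.10 ± 0.18 (adjusted p = 0.000392). For WT1-high against WT1-negative, Pnpla2 was no longer called without WT1-high array 29 (0.0577) or WT1-negative array 11 (0.0544), and Dgat1 without WT1-high array 29 (0.0944), WT1-negative array 11 (0.074) or WT1-negative array 14 (0.0981).

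A list of 10 macrophage genes had its lowest sums in WT1-high samples, the group with the lowest mean levels of Lpl, Plin2 and Fabp5. The summed linear intensity was 3584 to 6469 in WT1-high, 12369 to 19817 in WT1-intermediate and 34947 to 39264 in WT1-negative samples, with 8 to 10 of the 10 genes detected on every array. The order did not hold array by array, since WT1-negative array 11 had the highest sum (39264) and an Lpl level of 10.39, below that of WT1-high array 8. Members of the list also went both ways between WT1-intermediate and WT1-negative samples. Cd68 was higher in WT1-negative samples (12.57, 12.75 and 12.69, against 10.72, 9.84 and 9.18). Lyz1 was higher in WT1-intermediate samples (8.27, 9.76 and 8.98, against 4.38, 4.28 and 4.92), as was Clec4f, which was undetected in culture. Macrophages also express Lpl, Plin2 and Fabp5, and the part of macrophage RNA in their values was not tested. A list of 8 endothelial genes had the same order of group sums. These were 424 to 541 in WT1-high, 725 to 832 in WT1-intermediate and 942 to 1348 in WT1-negative samples. Of the 8, 3 were higher and 5 lower in WT1-intermediate than in WT1-negative samples. The part of endothelial RNA was not tested either.

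Among binding and transport genes, Ttr, the plasma partner of RBP4 and a gene of the hepatocyte list, was higher in WT1-high than in WT1-negative samples by 3.68 ± 0.63 (SE; limma adjusted p = 0.000401). In WT1-intermediate samples it was higher by 3.63 ± 0.63 (adjusted p = 0.00048). Stra6, the receptor that takes up retinol from RBP4, stayed between 4.25 and 4.94 and was not called (adjusted p = 0.978, 0.816 and 0.758).

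The enzymes that convert retinol and retinal gave calls in both directions. Rdh10, which oxidizes retinol to retinal, read 5.39, 5.79 and 6.36 in WT1-high, 4.71, 4.67 and 5.20 in WT1-intermediate, and 4.79, 4.95 and 4.59 in WT1-negative samples. WT1-high samples exceeded the WT1-intermediate by 0.99 ± 0.24 (SE; limma adjusted p = 0.0497) and the WT1-negative by 1.07 ± 0.24 (adjusted p = 0.0028). The former sat at the threshold and was lost on leaving out any of 7 arrays (adjusted p 0.0611 to 0.168): WT1-intermediate 1 or 8, WT1-high 8 or 29, or any WT1-negative array. Dhrs4 (1.29 and 0.76) and Rdh12 (0.81 and 0.71) were higher than in culture in WT1-high and WT1-intermediate samples, whereas Rdh11, which mainly reduces retinal, was lower (-0.87 and -1.11). Adjusted p-values of these 6 differences ran from 7.83e-05 (Rdh11) to 0.00709 (Rdh12). Dhrs3, a retinal reductase, was undetected on all WT1-high arrays, and WT1-negative samples were at least 1.47-fold above their background limit. It was called lower in WT1-high samples, but passed the filter on dim probes only through the other groups, so no p is given. Rdh1 was lower in WT1-intermediate than in WT1-negative samples (-0.53 ± 0.21, adjusted p = 0.0451). The Dhrs3 call was lost without WT1-high array 1 or 8 or WT1-negative array 3 or 14, and held in 11 of 18 alternatives run. The Rdh1 call was lost without WT1-intermediate array 1 (0.134) or 30 (0.0865), WT1-high array 1 (0.0536), or WT1-negative array 3 (0.094) or 11 (0.148). It held in 7 of 18 alternatives run, and was lost with median scaling and without background correction.

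Aldh1a3, the remaining classical retinal dehydrogenase, did not share the order of its relatives. It read 5.01, 5.45 and 5.20 in WT1-high, 5.77, 5.79 and 6.42 in WT1-intermediate, and 4.47, 4.30 and 4.38 in WT1-negative samples, undetected on the last. WT1-intermediate was thus the highest group for Aldh1a3, where WT1-high was for Aldh1a1 and Aldh1a2. Its mean was at least 1.53-fold and at least 2.62-fold above the background limit of WT1-negative arrays in WT1-high and WT1-intermediate samples. Both differences were called, but the gene passed the filter on dim probes only through these groups, so no p is given. The difference of -0.78 ± 0.20 between the liver groups was not called (limma adjusted p = 0.0559) but was with the animal as a block (adjusted p = 0.0162, the lowest of a range up to 0.144 over all alternatives).

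**Figure D5:**
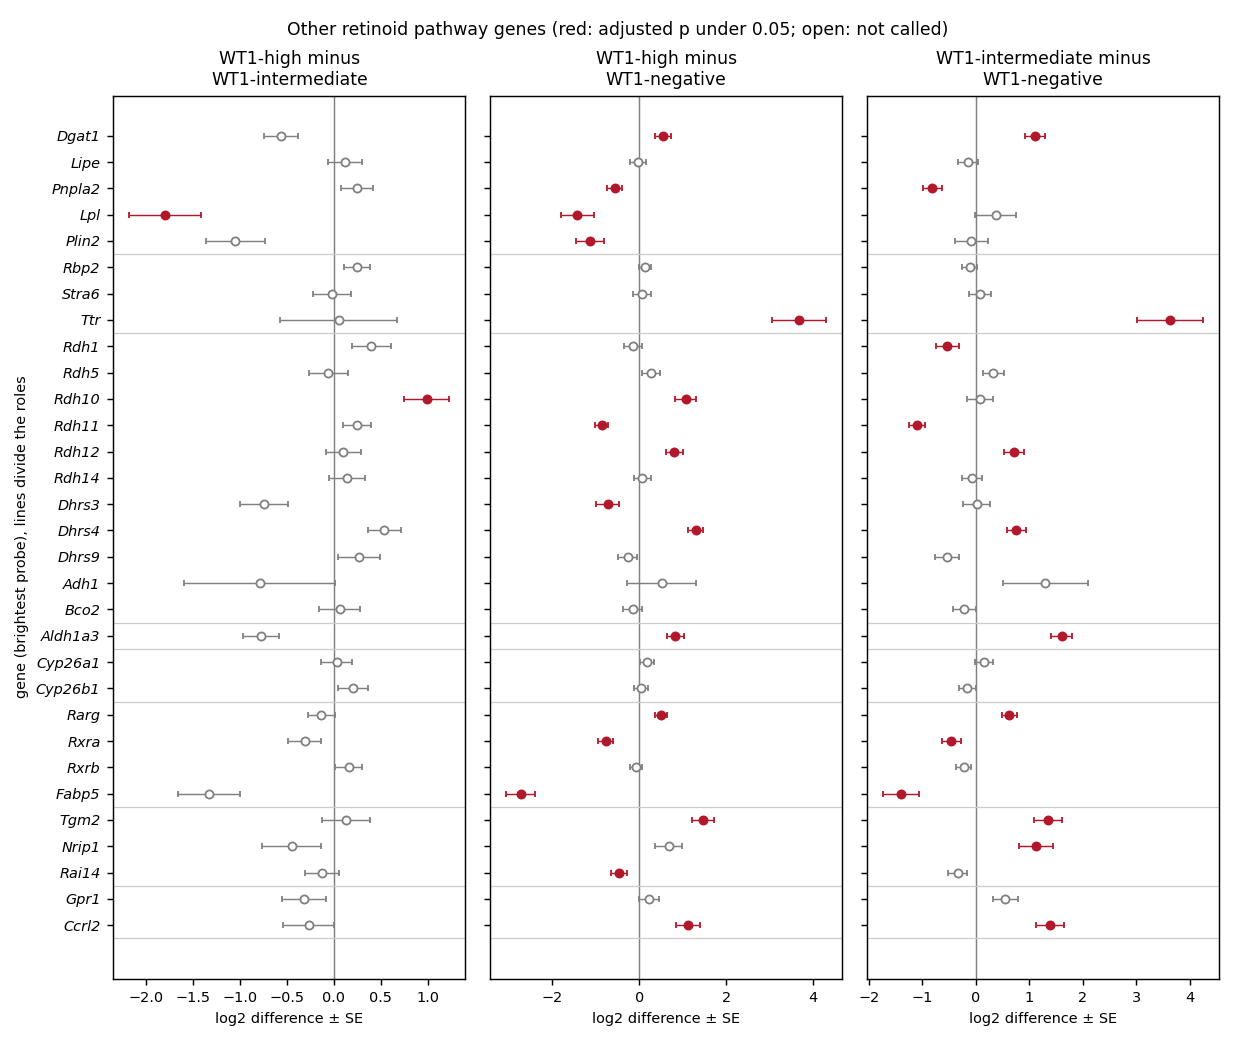
Log2 difference ± SE (x axis, a different range in each panel) of 31 of the 33 other retinoid pathway genes tested (y axis, brightest probe), ordered by role with grey lines between roles, for the 3 pairs of groups; red points have a limma adjusted p under 0.05. The left panel has 2 red points (Lpl and Rdh10), against 17 and 14 in the comparisons with WT1-negative samples. The 2 genes not drawn are not reported here and hold the rest of the 19 and 15 calls.

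Of 4 nuclear receptors and carriers tested, 3 were called against WT1-negative for each WT1-positive group. This stands beside 59.8% (WT1-high) and 57.9% (WT1-intermediate) of all genes called. Between the liver groups limma called 0 of 4, beside 3.84% of all genes, with 1 at an unadjusted p under 0.05. Rarg was higher in both WT1-positive groups (0.49 ± 0.14, limma adjusted p = 0.0104, and 0.62 ± 0.14, adjusted p = 0.00278), Rxra was lower (-0.77 ± 0.18, adjusted p = 0.00306, and -0.46 ± 0.18, adjusted p = 0.0432) and Rxrb was not called (adjusted p = 0.623, 0.681 and 0.184). These Rarg values are from its brightest probe. A second probe gave overlapping groups, with means of 5.41 (WT1-high), 5.37 (WT1-intermediate) and 5.15 (WT1-negative), and SDs of 0.35, 0.39 and 0.53. The remaining Rarg probe was near background. Without WT1-negative array 14, Rarg in WT1-high samples missed the threshold (0.0579). Rxra in WT1-intermediate samples missed it without WT1-intermediate array 1 (0.13) or 30 (0.0743), WT1-high array 8 (0.0552), or WT1-negative array 11 (0.164) or 14 (0.077). That Rxra call held in 7 of 18 alternatives run, and was lost with median scaling and without background correction. Rara was detected on WT1-high array 8 alone. Fabp5, which carries retinoic acid to other nuclear receptors and also fatty acids, was lowest in WT1-high samples at 4.86, 5.34 and 4.95, against 7.27, 6.15 and 5.71 in WT1-intermediate and 7.86, 7.47 and 8.02 in WT1-negative samples. The groups did not overlap, and the differences from culture were -2.73 ± 0.33 (adjusted p = 3.29e-05) and -1.41 ± 0.33 (adjusted p = 0.00373).

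Among other retinoic acid response genes, Tgm2 (tissue transglutaminase) was higher in both WT1-positive groups by 1.47 ± 0.26 (SE; limma adjusted p = 0.000504) and 1.34 ± 0.26 (adjusted p = 0.001), although its second probe was not called in either (adjusted p = 0.339 and 0.539). Nrip1 was at least 1.74-fold above the background limit of WT1-negative arrays in WT1-intermediate samples. It was called there, but passed the filter on dim probes only through the WT1-positive groups, so no p is given. Rai14 was lower in WT1-high than in WT1-negative samples (-0.47 ± 0.18, adjusted p = 0.04), a call lost on leaving out WT1-high array 1, 8 or 29 or WT1-negative array 3 or 14 (adjusted p 0.0528 to 0.171). Of the chemerin receptors, Ccrl2, which binds chemerin without known signalling of its own, was 1.12 ± 0.27 (adjusted p = 0.00382) and 1.39 ± 0.27 (adjusted p = 0.00101) higher in WT1-high and WT1-intermediate samples. Cmklr1, the signalling receptor, was detected on 1 array only, and Gpr1 was not called.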

How the data were processed

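Transcripts were measured on Illumina MouseWG-6 bead arrays (9 in all, 3 per group). The deposited values are the authors' BeadStudio summary profiles. They hold a linear mean bead intensity for each probe, as exported before any correction or scaling, and a deposited detection p-value set against 936 negative controls. The submitters' processing notes name limma. The same intensities in a joined table differed by 0.

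Background correction and quantile normalization used neqc (limma 3.58.1, R 4.3.3; offset 16, log2) over 9 arrays. The fit took the 20573 probes detected (p under 0.05) on 3 or more arrays, with 3 groups as levels (6 residual, 5.19 prior degrees of freedom). Each SE of a difference is the moderated SE of this fit, pooled over all 3 groups, and can differ from the spread of the groups compared. Adjusted p-values are Benjamini-Hochberg over all probes. A gene is given by its brightest probe. Lower bounds ("at least") compare the bright group's mean with the background limit of a group in which the probe was undetected on all arrays. No p is given with such a bound. Of 44 other retinoid genes, 40 were matched by symbol and 3 by Entrez gene ID. The steps were tested on simulated data. The number of arrays limits the precision, and p-values measure only the spread between these samples. The study's methods count separate animals in vivo and separate cell isolations in vitro as replicates.

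The 9 genes and all lists were chosen with earlier results of these data known. Named genes were the 9 genes, other retinoid genes that were called (and Rara, Rarg, Rxra, Rxrb and Stra6 in any case), and for each of the 9 the genes with the highest Pearson correlation. Some genes under this rule are not reported here. Genes outside it were named with values after these were seen. An in vivo column numbered 29 was taken as WT1-intermediate array 30, since no other array of that group was without a column. Its detection p was computed from its negative controls (on the other 8 arrays this gave the deposited detection calls). The study gives 3 animals for 6 in vivo arrays. Deviations from the group means correlated at 0.35 (arrays 1), 0.34 (arrays 8) and 0.47 (29 with 30) within pairs and -0.39 to 0.034 otherwise, so numbers were taken as pairs. The reported fit has no block, as in the study's methods.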

Additional observations from a re-analysis of the deposited data

How the results depend on the processing

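With the 3 arrays of a group, leaving out 1 array moved the calls among the 9 genes between 1 and 2 for WT1-high against WT1-intermediate, 4 and 5 for WT1-high against WT1-negative, and 4 and 5 for WT1-intermediate against WT1-negative. For the other retinoid genes these ranges were 0 to 3, 15 to 20 and 13 to 17. For WT1-high against WT1-intermediate, the reported 1 call among the 9 genes became 3 with median scaling, 2 without background correction, 2 with an offset of 50, and 2 with all probes of a gene. With the replicate block it became 3 (random, by label number), 3 (random, with 29 and 30 as 1 animal) and 2 (fixed, numbers 1 and 8). Among other retinoid genes in that comparison, the 2 calls became 0 without background correction, 0 with an offset of 50, 0 with no filter on dim probes, 1 with only the compared groups in the fit and 1 with array weights. With the replicate block they became 7 (random, by label number: Lpl, Rdh10, Dgat1, Plin2, Dhrs4, Aldh1a3 and Fabp5), 6 (random, with 29 and 30 as 1 animal: these without Dhrs4) and 6 (fixed). Calls over all probes in that comparison moved too, from 730 to 1040 with median scaling and 473 without background correction. They were 1752 with the random block by label number and 1796 with 29 and 30 as 1 animal. Array-wide counts for the other settings are not given, so no change is read as particular to these genes. Requiring detection on all 9 arrays left 2 of 4 (WT1-high) and 3 of 4 (WT1-intermediate) of the 9 genes called against WT1-negative, and 12 of 15 and 9 of 15 other retinoid genes, because fewer genes were tested. Where a setting changed a count otherwise, the cause was not tested. The random block changed no count against WT1-negative by over 1.5 times. No group difference of Rbp4, Aldh1a1 or Aldh1a2 changed sign under the alternatives run, nor did those of Rarres1 except WT1-high against WT1-negative (-0.42 to 0.02 without 1 array). Rarb differences changed sign with single arrays left out. The Rarres1 difference between the liver groups ranged from 1.25 to 2.80, and Aldh1a1 against WT1-negative from 3.95 to 6.28 in WT1-high samples, lowest without background correction in both cases. The files give no slide or chip, so the planned slide block was not run. Signal over background limits Lrat, Crabp1 and Cyp26a1, for which no difference was measurable. Crabp2 rose clearly above background on WT1-high array 29 alone, and its WT1-high differences rested on that array.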
